A study of Saccharomyces cerevisiae with 44 samples.

Results

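Total RNA of budding yeast (Saccharomyces cerevisiae) lacking THO2 was compared with total RNA of wild-type cells in a strain pair that carried no protein A (PrA) tag. The comparison rests on 6 libraries, 3 biological replicates of the tho2Δ strain and 3 of the wild type, out of 30 libraries in the study, and they were chosen by strain and by material (input lysate, no tag). These 6 libraries came from 11 of the 44 sequencing runs, since 5 of them were read on 2 sequencers and tho2Δ replicate 3 on 1. Both strains had the BY4741/2 background (MATa his3Δ1 leu2Δ0 lys2Δ0 met15Δ0 ura3Δ0), and both expressed Yra1 with a SNAPf tag (SNAPf-YRA1). In the tho2Δ strain the gene was replaced by KanMX. Each genotype was 1 strain, so the deletion and any other difference between the strains cannot be told apart. Cells grew in rich medium (YPD) at 30 °C to an optical density near 1, were frozen and ground, and the lysate, not the living cells, was treated with 0.2% formaldehyde. RNA from 7.5% of that lysate was sequenced from its 3′ ends. A second strain pair, in which Cbp80 carried a PrA tag in both genotypes, was sequenced in the same way and serves here only to show where the untagged pair differs from it. Input lysate of a wild-type strain with PrA on Hpr1, a subunit of THO, was sequenced too and entered the fit but no comparison.

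Tho2 is a subunit of the THO complex, which travels with RNA polymerase II, binds nascent mRNA and, with the helicase Sub2 and the adaptor Yra1, forms the TREX complex that hands mRNA to the nuclear export receptor. Yeast cells without THO are known for poor transcription of long genes, for RNA-DNA hybrids and for a high rate of recombination. Total RNA from a lysate gives the steady-state share of each transcript, so it does not separate synthesis from decay or nuclear from cytoplasmic RNA. A lower share of a transcript can come from fewer cells that express it or from less RNA per cell, and these cannot be told apart in bulk RNA.

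The libraries held 470166 to 650795 gene counts in wild type and 423380 to 561661 in tho2Δ (exact permutation p = 0.3, two-sided, smallest possible 0.1), each count being a 3′-end tag after removal of duplicates. Tags outside annotated genes, which include those in untranslated regions, made up 47.6% to 48.3% of all counts in wild type and 46.6% to 47.5% in tho2Δ. Levels are given below in CPM, the usual scaling of counts to a common library size, and 3 counts, the limit that a count of 0 allows, correspond to 6.81 CPM in the shallowest of the 6 libraries. The genotype labels were checked on THO2 (YNL139C, chromosome XIV, 360924 to 365717, build R64). THO2 had 125, 131 and 165 CPM in the wild-type libraries and 0 counts in every tho2Δ library, so it was at least 67.3-fold lower (222 counts in wild type, with the empty group set to 3). The labelled mating type was checked as well. The MATa genes STE2, MFA1, MFA2, STE6 and BAR1 were detected in all 6 libraries and did not pass the test, while the MATalpha pheromone genes MF(ALPHA)1 and MF(ALPHA)2 and the receptor gene STE3 stayed at or below 4.58 CPM. SAG1, the alpha-agglutinin gene, was nevertheless read at 19.5, 26.8 and 28.5 CPM in wild type and 41.8, 42.7 and 34.3 CPM in tho2Δ, without passing the test (adjusted p = 0.107). Of the marker genes deleted in both strains URA3, LEU2, LYS2 and MET17 had 0 counts in all 6 libraries.

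The count table lists 6461 genes, of which 4792 had enough counts to be tested. With a call defined by an adjusted p under 0.05 (edgeR quasi-likelihood test, Benjamini-Hochberg) and a log2 fold change beyond 1, 185 genes (3.86% of those tested) were higher in tho2Δ and 58 (1.21%) were lower, 5.07% in all. By adjusted p alone 567 genes (11.8%) rose and 490 (10.2%) fell, and "rose" and "fell" are used below for genes that passed this adjusted p. The median log2 fold change of all tested genes was 0.0012. Groups did not overlap for 181 of the 185 genes called higher and 54 of the 58 called lower, beside 17.5% and 15.8% of all tested genes in those directions. The number called lower depended on single libraries, from 44 without tho2Δ replicate 3 to 92 without tho2Δ replicate 2, while the number called higher stayed between 180 and 198. The genes called higher comprised 164 nuclear coding genes, 10 tRNA genes, 4 mitochondrially encoded genes, 3 spliceosomal RNAs, the RNase P RNA, an antisense RNA, a pseudogene and 1 gene without a match in the annotation. The genes called lower were 57 coding genes and 1 small nucleolar RNA. Among the called nuclear coding genes 8 of 164 and 11 of 57 had a near-identical coding copy elsewhere in the genome, so their counts are uncertain as to their source. Non-coding and mitochondrially encoded genes, the tRNA genes among them, were not searched for copies.

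**Figure D1:**
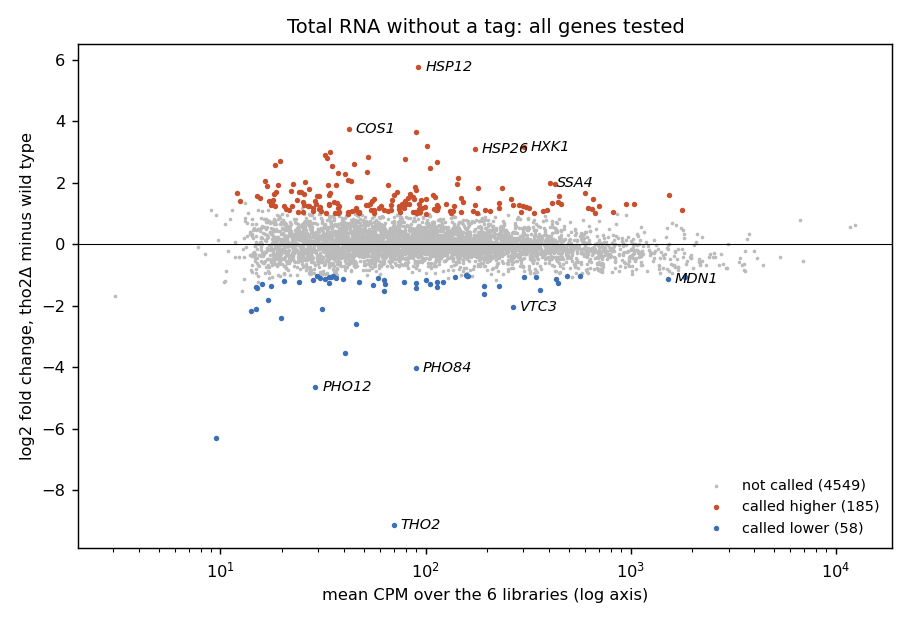
Log2 fold change of tho2Δ against wild type (vertical axis) plotted against the mean CPM over the 6 libraries (horizontal log axis) for the 4792 genes tested. Genes called higher (185) lie up to the 5.77 of HSP12, which was under the 6.81 CPM limit in wild type. Those called lower (58) include THO2, PHO12 and PHO84. Fitted values of genes at 0 counts in a group, such as THO2, are not bounds.

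Genes of the general stress response showed the highest median among the gene lists examined by function. This program is switched on in yeast by the transcription factors Msn2 and Msn4 in slow growth, heat or starvation, and it covers protective proteins and enzymes of the reserve carbohydrates trehalose and glycogen. Of 29 tested members 27 rose, 24 of them beyond the fold limit, and 0 fell, with a median log2 fold change of 1.61 against 0.0012 over all genes. HSP12 (YFL014W), a small membrane-protecting protein, had 3.90, 4.72 and 0 CPM in wild type and 206, 173 and 167 CPM in tho2Δ. The groups were far apart, and the fitted change of 5.77 ± 0.34 (SE, n = 3 against 3, adjusted p = 5.41e-17) was the largest among all tested genes. HXK1 (YFR053C), a hexokinase that is repressed in ample glucose, had 44.9, 70.9 and 65.8 CPM in wild type and 559, 509.8 and 563 CPM in tho2Δ (3.15 ± 0.17, adjusted p = 5.56e-17). CTT1, the cytosolic catalase, had 9.76, 15.8 and 15.4 CPM in wild type and 64.4, 78.6 and 59.5 CPM in tho2Δ (2.27 ± 0.30, adjusted p = 1.19e-07). SOL4, a lactonase of the pentose phosphate pathway, rose by 2.90, and XBP1, a repressor of cell cycle genes in stress, by 2.32 (3.10 without wild-type replicate 2).

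Both arms of reserve carbohydrate metabolism were among them. On the glycogen side GPH1, glycogen phosphorylase, rose by 2.67 ± 0.20 (33.2, 25.2 and 35.1 CPM against 211, 171 and 206 CPM), and GLC3, the branching enzyme, by 1.98 ± 0.17. On the trehalose side the synthase subunit genes TSL1, TPS2 and TPS1 rose by 1.46, 1.22 and 1.12, and the trehalase gene NTH1 by 0.72. Genes of synthesis and of breakdown were thus both among those that rose. Of the transcription factors, MSN4 had 13.7, 12.6 and 10.97 CPM in wild type and 27.9, 26.9 and 50.3 CPM in tho2Δ (1.45 ± 0.40, adjusted p = 0.00643), and without tho2Δ replicate 3 its change was 1.14 and did not pass. MSN2 did not pass the test (0.47, adjusted p = 0.263). GPD1, the glycerol phosphate dehydrogenase of the osmotic response, had overlapping groups (-0.35 ± 0.35, adjusted p = 0.526). The listed genes took 0.186% ± 0.0170 (SD, n = 3) of gene counts in wild type and 0.563% ± 0.0138 in tho2Δ.

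Msn2 and Msn4 bind the stress response element AGGGG, so the 500 nt before each coding start were searched for these letters on both strands. AGGGG was present for 117 of 164 coding genes called higher (71.3%), for 9 of 57 called lower (15.8%) and for 34.1% of all 5991 nuclear coding genes. Outside the stress list it was present for 94 of 140 genes called higher (67.1%). The heat shock element GAANNTTC was found for 22.6% of genes called higher, 10.5% of those called lower and 19.2% of all. Windows of 30 nt around a stress response element before 5 of the genes that rose are shown 5′ to 3′ on the gene's strand (RefSeq R64), with AGGGG or its reverse complement CCCCT in capitals:
HSP12: gttccggtcgtcCCCCTcttgatctgaaag
HXK1: catttttttttaAGGGGttgatgaaaagaa
CTT1: ggatcaccggtaAGGGGccaagcggtgaaa
HSP26: ggttattccctcCCCCTtatgcgtccaaaa
TPS2: gggtctgattatAGGGGttagttacgctcc
The window of HSP12 lies at chrVI:107054-107083 and is 1 of 5 matches before that gene, and the window of HSP26 at chrII:381692-381721 is 1 of 3. That of HXK1 lies at chrVI:255369-255398 on the minus strand, that of CTT1 at chrVII:654259-654288 and that of TPS2 at chrIV:593573-593602. A match is a description of the letters and not a bound site.

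Heat shock proteins and chaperones changed in both directions. Of 31 tested genes 15 rose, 4 fell and 12 did not pass the test, with a median of 0.27. HSP26 (YBR072W), a small heat shock protein that holds unfolded proteins, had 31.2, 37.8 and 39.5 CPM in wild type and 310.0, 355 and 268 CPM in tho2Δ (3.10 ± 0.19, adjusted p = 5.56e-17). SSA4, a stress-induced cytosolic Hsp70, had 135, 176 and 175 CPM in wild type and 618, 647 and 673 CPM in tho2Δ (1.99 ± 0.12). Further increases were found for HSP42 (1.58), the nucleotide exchange factor SSE2 (1.47), the membrane protein HSP30 (1.37), the mitochondrial HSP78 (1.33) and the disaggregase HSP104 (0.98). In the other direction SSB1, an Hsp70 that binds chains emerging from the ribosome, had 581, 624 and 384 CPM in wild type and 212, 229 and 130 CPM in tho2Δ (-1.47 ± 0.34, adjusted p = 0.0101). SSB1 has a near-identical copy, SSB2, which stood at -0.53 (adjusted p = 0.0294) and did not pass without any one of 4 libraries (-0.52 to -0.37). HSC82, the Hsp90 of unstressed cells, fell by 0.69. Among both Hsp110 genes SSE2 rose while SSE1, the growth form, fell by 0.29.

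**Figure D2:**
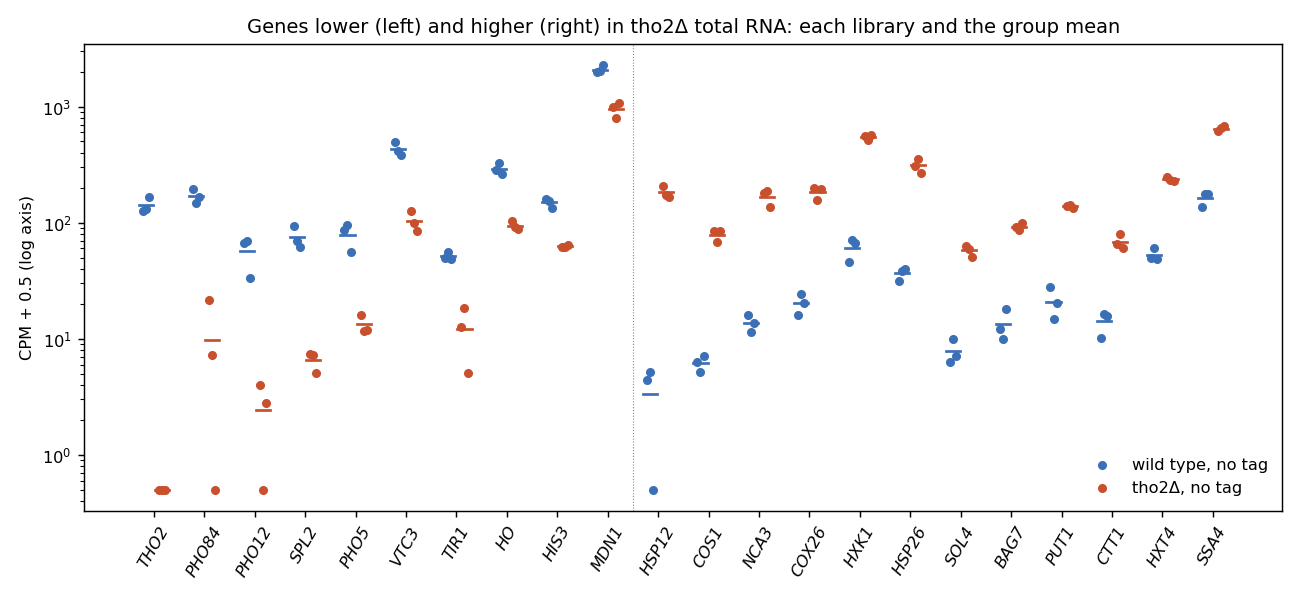
CPM plus 0.5 on a log axis for 22 genes in each of the 6 libraries (points) with the group means (bars), genes lower in tho2Δ on the left and higher on the right. In every gene shown the 3 tho2Δ libraries lie on one side of the 3 wild-type libraries, for example 62.7, 58.4 and 50.3 CPM against 5.85, 9.45 and 6.58 CPM for SOL4. Groups without overlap were a condition for naming the largest changes, so for those genes the separation is no separate result.

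Many genes of mitochondrial respiration rose, from the nuclear and from the mitochondrial genome. Of 30 tested nuclear genes of oxidative phosphorylation 17 rose, 9 of them beyond the fold limit, 0 fell and 13 did not pass the test. All 30 had a positive value, and their median was 0.72. CYT1, cytochrome c1, had 39.0, 40.9 and 54.8 CPM in wild type and 111, 162 and 114 CPM in tho2Δ (1.52 ± 0.21, adjusted p = 2.75e-07). QCR9, another subunit of the same complex, rose by 1.17, SDH3 of succinate dehydrogenase by 1.11, the external NADH dehydrogenase NDE1 by 1.09 and ATP5 of the ATP synthase by 1.04. QCR2 stood at 1.29 (adjusted p = 0.011) and lost the call without wild-type replicate 2 (1.16) or without tho2Δ replicate 1 (0.96). COX26, a small subunit of cytochrome oxidase that was not in the list, had 15.6, 23.6 and 19.7 CPM in wild type and 197, 157 and 195 CPM in tho2Δ (3.19 ± 0.22, adjusted p = 1.74e-15). NCA3, which is known to affect the synthesis of mitochondrial ATP synthase subunits, rose by 3.65 ± 0.29 (15.6, 11.02 and 13.2 against 179, 186 and 135 CPM). Of 12 genes of the tricarboxylic acid cycle and retrograde signalling 4 rose, among them the malate dehydrogenase MDH1 (1.17), the succinyl-CoA ligase subunit LSC2 (1.13) and the citrate synthase CIT1 (1.03).

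Of 46 listed mitochondrially encoded genes 12 were tested, 9 of which rose and 0 fell (median 0.75). They took 1.54% ± 0.196 (SD, n = 3) of gene counts in wild type and 2.64% ± 0.0881 in tho2Δ. Most of these counts lay on the large ribosomal RNA 21S_RRNA, with 10200, 8498 and 10730 CPM in wild type and 15580, 15540 and 14290 CPM in tho2Δ (0.63 ± 0.09, adjusted p = 6.44e-07), and on AI1, an intron-encoded reading frame of COX1, with 5194, 4168 and 5469 against 8532, 8830 and 8089 CPM (0.78 ± 0.09). The groups of both genes did not overlap. COX2, a catalytic subunit of cytochrome oxidase, rose by 1.53 ± 0.32 from 35.1, 7.87 and 32.9 CPM to 57.5, 71.9 and 82.4 CPM. The ATP synthase subunit ATP6 rose by 1.22 and the small ribosomal RNA 15S_RRNA by 1.15. The exons of COX1 and COB, and OLI1, VAR1 and COX3, were at 0 to 3.48 CPM in every library and were not tested. Counts on genes with overlapping annotation, such as AI1 and AI2 (0.97), depend on how tags were assigned. Mitochondrial RNAs are not polyadenylated as nuclear mRNAs are, so 3′-tag counts do not give their amounts relative to nuclear genes.

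The phosphate regulon moved the other way and, after THO2 itself, held the 5 lowest fitted values among all genes tested. In low phosphate the transcription factor Pho4 turns on transporters, phosphatases and the polyphosphate polymerase, and the cyclin-dependent kinase inhibitor Pho81 keeps Pho4 active. Of 17 listed genes 13 were tested, and 12 of these fell while 1 rose. The median was -1.43 and remained so with the genes at 0 counts set to their bounds. PHO84 (YML123C, chromosome XIII, 24037 to 25800), the high-affinity phosphate transporter, had 195, 148 and 167 CPM in wild type and 20.9, 6.74 and 0 CPM in tho2Δ (-4.01 ± 0.34, adjusted p = 9.96e-10). Its fitted value was -5.54 without tho2Δ replicate 1. PHO5, the secreted acid phosphatase, had 85.9, 94.5 and 54.8 CPM in wild type and 15.7, 11.2 and 11.4 CPM in tho2Δ (-2.60 ± 0.31, adjusted p = 8.88e-09). Its relative PHO12, which has a near-identical copy, had 93 counts in wild type and 3 in tho2Δ, a ratio of 28.2 (95% exact counting interval 9.35 to 139). PHM6, of unknown role, had 31 counts in wild type and 0 in tho2Δ, at least 9.40-fold lower. SPL2, which restrains low-affinity phosphate uptake, had 93.7, 69.3 and 61.4 CPM in wild type and 6.97, 6.74 and 4.58 CPM in tho2Δ (-3.55 ± 0.37, adjusted p = 3.84e-10).

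The genes of the vacuolar polyphosphate polymerase, VTC1 to VTC4, also fell. VTC3 had 497, 411 and 382 CPM in wild type and 125, 98.8 and 84.7 CPM in tho2Δ (-2.04 ± 0.15, adjusted p = 2.98e-13). VTC4, the catalytic subunit, fell by 1.43, VTC1 by 1.40 and VTC2 by 0.86. PHO81 fell by 1.22. Smaller changes were those of PHO8, the vacuolar alkaline phosphatase (-0.85), and PHO86, needed for Pho84 to leave the endoplasmic reticulum (-0.43). Both passed the test, but not without certain single libraries. PHO8 stood at -0.68 without wild-type replicate 1 and at -0.65 without tho2Δ replicate 2, and PHO86 at -0.30 without wild-type replicate 3. PHM8, a phosphatase of lipids and nucleotides, was the gene that rose, from 44.9, 69.3 and 43.9 CPM to 165, 139 and 140 CPM (1.46 ± 0.20). The transcript of PHO4 itself did not pass the test (-0.55, adjusted p = 0.357). The list took 0.259% ± 0.00865 (SD, n = 3) of gene counts in wild type and 0.132% ± 0.00559 in tho2Δ.

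Pho4 binds CACGTG. This palindrome stood within 500 nt before the coding start of all 9 phosphate genes called lower, of 13 of 57 coding genes called lower (22.8%) and of 8 of 164 called higher (4.88%), against 6.24% of all 5991 nuclear coding genes. Of all 17 listed phosphate genes 14 carried CACGTG (82.4%), so its presence does not set the 9 apart from their list. Outside the list it was found for 4 of 48 genes called lower (8.33%). Windows of 30 nt around 1 such match for 6 of the genes are shown 5′ to 3′ on the gene's strand (RefSeq R64), with CACGTG in capitals:
PHO84: tgttatttccagCACGTGgggcggaaatta
PHO5: ccttggcactcaCACGTGggactagcacag
PHO12: tcttggcgttcaCACGTGggtttaaaaagg
SPL2: agtatttttgctCACGTGaccgacaagggt
VTC3: tgcagtcgcaagCACGTGcatgcgattttg
PHO81: caggtgttatggCACGTGcgaataagggca
They lie at chrXIII:26197-26226 (PHO84), chrII:431187-431216 (PHO5), chrVIII:551804-551833 (PHO12), chrVIII:375444-375473 (SPL2), chrXVI:517312-517341 (VTC3) and chrVII:958537-958566 (PHO81). The PHO12 window reads on the plus strand and the others on the minus strand. SPL2 had 4 such matches, PHO84 and VTC3 had 2 each and the other genes shown had 1.

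On the strand opposite PHO84 the annotation places an antisense RNA gene, YNCM0001W (chromosome XIII, 23564 to 26578), which spans the whole coding gene. This RNA had 58.5, 36.2 and 68.0 CPM in wild type and 118, 132 and 142 CPM in tho2Δ, and it rose by 1.30 ± 0.20 (adjusted p = 1.93e-06) where PHO84 fell. In counts the pair stood at 270 sense and 84 antisense tags in wild type and at 15 sense and 189 antisense tags in tho2Δ. The strand setting of the counting is not given in the sources used here. PHO84 lies wholly inside YNCM0001W, and the counting mode leaves out tags that fit several genes, so PHO84 could have had no counts here if strand had been ignored.

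**Figure D3:**
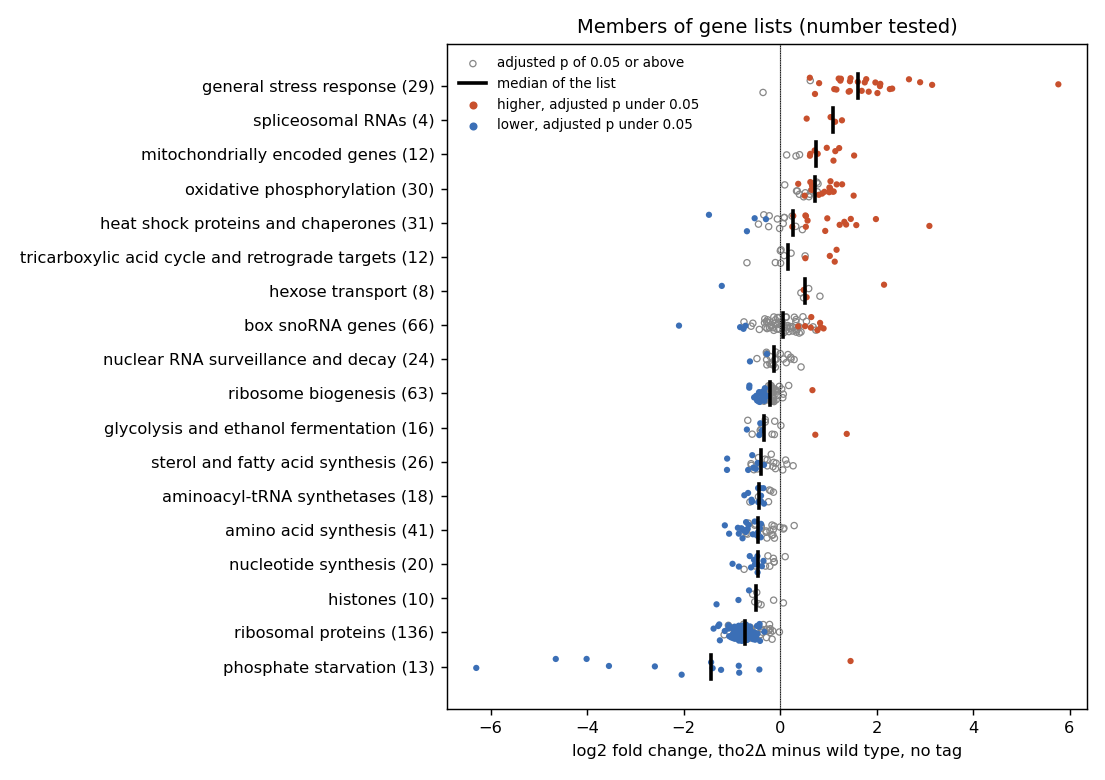
Log2 fold change of tho2Δ against wild type without a tag for the tested members of 18 gene lists, 1 point per gene, with the median of each list as a black bar. Filled points passed an adjusted p of 0.05. The stress list is centred at 1.61, the ribosomal proteins at -0.73 and the phosphate list at -1.43.

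Genes of the translation apparatus fell by small amounts in large numbers. Of 136 tested ribosomal protein genes 97 fell, 10 of them beyond the fold limit, and 0 rose. All 136 values were below 0, with a median of -0.73 and a range from -1.378 to -0.01. These genes took 13.7% ± 0.563 (SD, n = 3) of gene counts in wild type and 9.12% ± 0.904 in tho2Δ, without overlap between the groups (exact permutation p = 0.1, the smallest that 3 against 3 allows). RPL9A had 89.7, 104 and 74.6 CPM in wild type and 34.8, 38.2 and 38.9 CPM in tho2Δ (-1.28 ± 0.23, adjusted p = 4e-05). RPS9B fell by 1.05 and RPL16A by 1.07. RPS7A and RPS13 lost their call without any one of 4 libraries (-1.15 to -1.03 and -1.30 to -1.02), and RPS28B lost it without any one of 5 libraries (-1.43 to -1.22), in each case with libraries of both groups among them. Ribosomal protein genes with an intron stood at a median of -0.76 (87 genes) and those without at -0.69 (49 genes). Since all values were below 0, both copies were below 0 in each of the 57 pairs of duplicated genes, which is no separate result. Many of these copies are near-identical, so values of the single copy are uncertain. Intron-containing genes other than ribosomal proteins had a median of -0.04, with 11 of 135 rising and 15 falling. The number rising was 5 without tho2Δ replicate 1 and 7 without wild-type replicate 1.

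Other lists of the translation apparatus also had medians below 0. Of 18 aminoacyl-tRNA synthetase genes 12 fell (median -0.43), among them KRS1 for lysine (1186, 1162 and 1154 CPM against 637, 692 and 771 CPM, -0.74 ± 0.09, adjusted p = 2.46e-08) and VAS1 for valine (-0.66). Of 28 translation factor genes 13 fell and 15 did not pass (median -0.36). FUN12, eIF5B, which joins the ribosomal subunits, had 4406, 4813 and 4563 CPM in wild type and 2452, 2443 and 2853 CPM in tho2Δ (-0.83 ± 0.09, adjusted p = 2.71e-10), and the elongation factor subunit gene EFB1 fell by 0.73. Of 63 ribosome biogenesis genes 20 fell, 1 rose and 42 did not pass (median -0.21), and the number that fell was 12 without tho2Δ replicate 1. RRP5, a large assembly factor of both subunits, fell by 0.64 ± 0.09 (2334, 2167 and 2266 CPM against 1440, 1417 and 1487 CPM). NOP16, a factor of the large subunit, was the gene that rose (648, 693 and 629 CPM against 1078, 1062 and 999.7 CPM, 0.67 ± 0.09, adjusted p = 2.39e-07).

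Lists of other biosynthetic genes had medians below 0 as well. Of 41 amino acid synthesis genes 19 fell and 0 rose (median -0.46). HIS1, the first enzyme of histidine synthesis, had 441, 428 and 351 CPM in wild type and 195, 247 and 146 CPM in tho2Δ (-1.06 ± 0.14, adjusted p = 2.47e-07), and ILV5 of the branched-chain pathway (-0.87) and HOM2 of the aspartate pathway (-0.86) followed. HIS3, whose his3Δ1 allele still gave tags in both strains, had 160.0, 154 and 134 CPM in wild type and 60.9, 60.6 and 64.1 CPM in tho2Δ (-1.28 ± 0.18, adjusted p = 3.28e-07). Of 20 nucleotide synthesis genes 11 fell and 0 rose (median -0.47), with IMD4, an IMP dehydrogenase of guanine nucleotide synthesis, at -0.85. Of 26 sterol and fatty acid genes 9 fell (median -0.39), but 4 without tho2Δ replicate 1. Glycolysis was mixed, with 4 genes that fell and 2 that rose among 16 (median -0.34), and without wild-type replicate 1 only 2 fell. FBA1, aldolase, fell by 0.41, whereas TDH1, the glyceraldehyde phosphate dehydrogenase that is most abundant in stationary cells, rose by 1.382 (242, 275 and 215 CPM against 618, 799 and 508 CPM, adjusted p = 0.00061) and the enolase ENO1 by 0.73.

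Some genes at the cell surface rose and others fell. HXT4, a hexose transporter of intermediate affinity, had 48.8, 59.8 and 48.3 CPM in wild type and 247, 231 and 229 CPM in tho2Δ (2.15 ± 0.18, adjusted p = 5.92e-13). HXT1, the low-affinity transporter of high glucose, had 164, 195 and 147 CPM in wild type and 62.7, 80.9 and 80.1 CPM in tho2Δ (-1.21 ± 0.17, adjusted p = 6.63e-07). Of 8 tested hexose transporter genes 3 rose and 1 fell. Cell wall genes were mixed, with 4 that rose, 5 that fell and 16 that did not pass among 25 tested (median -0.21). Beside this, 11.8% of all tested genes rose and 10.2% fell. In the cell wall SED1, a wall protein of stressed and resting cells, rose by 1.96 ± 0.12 and GSC2, an alternative subunit of glucan synthase, by 1.33 ± 0.12 (205, 230 and 276 CPM against 592, 579 and 611 CPM). TIR1, a wall mannoprotein, fell by 2.11 ± 0.34 (48.8, 55.1 and 48.3 CPM against 12.2, 18.0 and 4.58 CPM, adjusted p = 5.76e-06), and PIR1 by 1.26. Of 9 genes of daughter cell separation 4 fell and 0 rose (median -0.58), among them the wall enzyme genes DSE4 (-0.86), EGT2 (-0.75) and the chitinase CTS1 (-0.69).

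Among genes of the cell cycle and of mating some fell and others rose. HO, the endonuclease of mating-type switching, had 285, 323 and 261 CPM in wild type and 103, 92.1 and 86.9 CPM in tho2Δ (-1.62 ± 0.15, adjusted p = 6.87e-12). FUS1, a cell fusion protein, fell by 1.79 ± 0.44 from 27.3, 28.3 and 24.1 CPM to 6.97, 8.98 and 6.86 CPM, while PRM4 rose by 0.82. Of 15 listed genes of the mating pheromone response 7 were tested, of which 2 fell (1 without wild-type replicate 1) and 1 rose. Of 10 histone genes 3 fell (median -0.50), with HTA1 at 74.1, 81.9 and 81.2 CPM in wild type and 27.9, 31.4 and 36.6 CPM in tho2Δ (-1.32 ± 0.22, adjusted p = 1.28e-05). HTA1 and HTA2 (-0.64) are near-identical copies, and both lie below 0. Of 8 genes of G2 and M phase 3 rose, including the transcription factor SWI5 (0.72 ± 0.14) and the kinase CDC5 (0.55 ± 0.10), and 0 fell. Leaving out 1 library gave 2 to 3 rising genes of G2 and M phase and 2 to 4 falling histone genes. These lists are small, and over all tested genes 11.8% rose and 10.2% fell.

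Large changes were also found among single metabolic, signalling and subtelomeric genes. PUT1, proline oxidase, had 27.3, 14.2 and 19.7 CPM in wild type and 139, 142 and 133 CPM in tho2Δ (2.77 ± 0.24, adjusted p = 3.02e-12). BAG7, a GTPase-activating protein of Rho1, had 11.7, 9.45 and 17.5 CPM in wild type and 90.5, 85.3 and 98.4 CPM in tho2Δ (2.85 ± 0.30, adjusted p = 4.23e-10). The subtelomeric gene COS1 rose by 3.75 ± 0.34 (5.85, 4.72 and 6.58 CPM against 83.6, 67.4 and 84.7 CPM), although 5 near-identical copies make its source uncertain. COS8, a family member without such a copy, rose by 1.13 ± 0.21. Of 36 listed genes of the subtelomeric PAU and COS families 29 had too few counts to be tested. Of the 7 tested 3 rose and 0 fell (median 0.54). In wild type COS1 lay under the 6.81 CPM limit in every library. A gene low in 1 group can be tested only if it is high in another, so these numbers do not describe the families. Genes within 20 kb of a chromosome end had a median of 0.06, with 8 rising and 7 falling of 62 tested. BNA7, an enzyme of NAD synthesis from tryptophan, fell by 1.51 ± 0.23 (105, 94.5 and 81.2 CPM against 38.3, 35.9 and 22.9 CPM).

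Among non-coding RNAs the spliceosomal RNAs had higher counts. Their 4 tested genes all rose, 3 beyond the fold limit. SNR6, the U6 RNA, had 338, 395 and 491 CPM in wild type and 975, 788 and 922 CPM in tho2Δ (1.14 ± 0.14, adjusted p = 2.52e-06). SNR19, the U1 RNA, rose by 1.05 and SNR7-L, the long form of U5, by 1.28, while LSR1, the U2 RNA, at 0.55 did not pass without any one of 4 libraries (0.41 to 0.61). These genes took 1.02% ± 0.192 (SD, n = 3) of gene counts in wild type and 1.64% ± 0.0907 in tho2Δ. Box small nucleolar RNA genes showed no common direction (66 tested, 8 rose, 4 fell, median 0.06), and without tho2Δ replicate 1 these numbers were 4 and 2. SNR17A, a U3 gene, rose by 0.90, whereas SNR30, which is needed for the early cleavage of ribosomal RNA, fell by 0.76 and SNR45 by 2.10 (29.3, 25.2 and 17.5 CPM against 3.48, 13.5 and 0 CPM). The value of SNR45 was -3.46 without tho2Δ replicate 2. Of 275 nuclear tRNA genes, a set added after the values were seen, 40 had enough counts, of which 15 rose and 1 fell (median 0.25). Counts of these short RNAs do not tell mature forms from precursors or from extended transcripts. The authors trimmed poly(A) tails from the 3′-end tags, and whether these RNAs carried such tails was not tested. Their counts therefore do not give the total amount of each RNA.

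The longest genes had the lowest medians in tho2Δ. The median log2 fold change was -0.01 for coding lengths up to 500 nt (433 genes), -0.07 for 500 to 1000 nt (1162 genes), between 0.0075 and 0.05 in the bins from 1000 to 3000 nt and -0.04 for 3000 to 4000 nt (271 genes), so that it did not fall steadily with length below 4000 nt. It was -0.10 for 4000 to 5000 nt (111 genes), -0.22 for 5000 to 7000 nt (57 genes) and -0.30 for 7000 to 20000 nt (19 genes, so that bin is thin). Of 76 genes over 5000 nt 28 fell and 2 rose, against 441 that fell and 518 that rose of 4462 genes up to 4000 nt. The bin of 4000 to 5000 nt holds the deleted THO2. Reading frames of Ty elements, which have near-identical copies, were not left out of the bins over 4000 nt. Genes over 5000 nt took 3.42% ± 0.130 (SD, n = 3) of gene counts in wild type and 2.93% ± 0.191 in tho2Δ, with no overlap between groups. Across 5 equal bins of GC content the medians stayed between -0.03 and 0.02, whereas the highest of 5 bins of CPM stood at -0.15.

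The longest genes did not move uniformly. REA1 (MDN1, YLR106C, chromosome XII, 349006 to 363738), a very large ATPase of ribosome assembly, had 1963, 2015 and 2268 CPM in wild type and 994, 793 and 1066 CPM in tho2Δ (-1.13 ± 0.10, adjusted p = 2.03e-12). DYN1, the heavy chain of dynein, had 336, 290 and 364 CPM in wild type and 111, 121 and 153 CPM in tho2Δ (-1.36 ± 0.14, adjusted p = 1.19e-10). POL2, the catalytic subunit of DNA polymerase epsilon, fell by 0.63 ± 0.11 and TOM1, a ubiquitin ligase, by 0.38 ± 0.09. TRA1, a subunit of coactivator complexes, stood at -0.43 (adjusted p = 0.00776) and did not pass without any one of 4 libraries (-0.39 to -0.33). IRA2, an inhibitor of Ras, had 417, 359 and 491 CPM in wild type and 341, 337 and 398 CPM in tho2Δ, which overlapped (-0.23 ± 0.12, adjusted p = 0.18). TAO3, a scaffold of a morphogenesis pathway, stood at -0.28 ± 0.16 (adjusted p = 0.226) and the checkpoint kinase gene TEL1 at -0.02 ± 0.10 (adjusted p = 0.9).

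**Figure D4:**
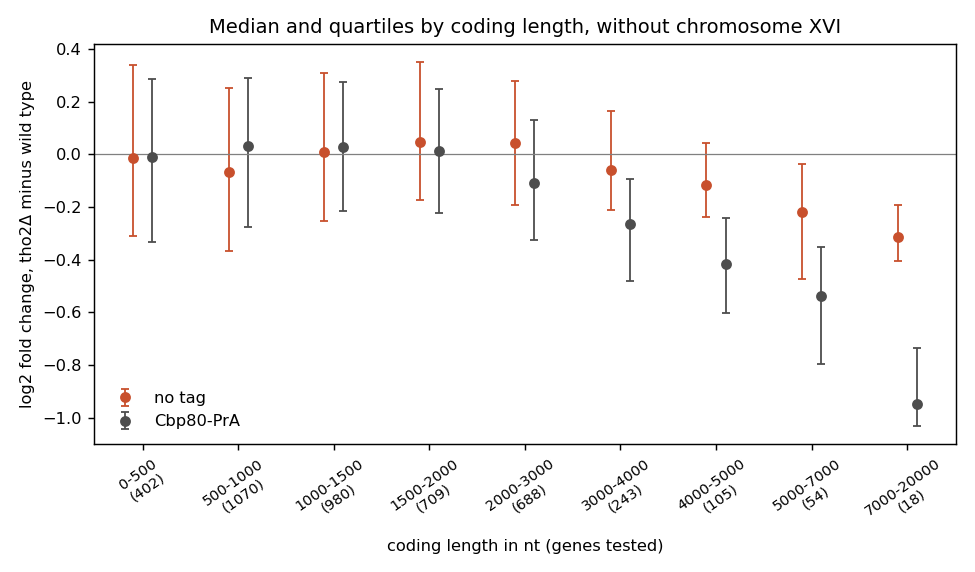
Median (points) and quartiles (bars) of the log2 fold change of tho2Δ against wild type in 9 bins of coding length, in nt, for the untagged pair and the Cbp80-PrA pair, with genes of chromosome XVI left out. In the bin of 7000 to 20000 nt (18 genes) the medians were -0.31 without a tag and -0.95 with Cbp80-PrA.

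The other genes of THO and TREX did not pass the test. HPR1 (-0.02), MFT1 (0.21), THP2 (-0.72, adjusted p = 0.257), TEX1 (-0.25), SUB2 (-0.21) and YRA1 (-0.42, adjusted p = 0.0907) were the 6 tested. STO1, which encodes Cbp80, was at 259, 205 and 233 CPM in wild type and 233, 204 and 245 CPM in tho2Δ (-0.02 ± 0.13). Of 20 tested mRNA export genes 2 rose (0 without wild-type replicate 3) and 3 fell, the helicase DBP5 by 0.45 and DBP2 by 0.69 among the latter. Of 24 genes of nuclear RNA surveillance 2 fell (1 without wild-type replicate 2), with the exosome helicase MTR4 at 923, 790 and 785 CPM in wild type and 526, 465 and 631 CPM in tho2Δ (-0.62 ± 0.10, adjusted p = 1.08e-05). Of 21 genes of the DNA damage response and R-loop enzymes 2 rose (1 without wild-type replicate 2) and 0 fell, including TOP1, topoisomerase I (0.48 ± 0.11, adjusted p = 0.000696). Over all tested genes 11.8% rose and 10.2% fell. The genes named from these lists are therefore single examples and not a trend of their lists.

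Around the deleted gene 13 of 18 genes within 10 kb were tested, and 0 passed the fold limit. MPF1 rose by 0.97 ± 0.15 (115, 124 and 132 CPM against 254, 234 and 238 CPM), and FYV6 by 0.87, YNL134C by 0.59 and EAF7 by 0.53. AAH1, adenine deaminase and the nearest tested gene downstream of THO2, fell by 0.79 ± 0.16 (199, 187 and 167 CPM against 104, 94.3 and 124 CPM), and KRE33 fell by 0.52. SRV2 and YSF3 on the other side of THO2 did not pass the test (0.23 and 0.60, adjusted p = 0.304 and 0.193).

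The counts in the remaining lists stand beside 11.8% of all tested genes that rose and 10.2% that fell. In the iron regulon 3 of 14 tested genes rose and 1 fell (0 fell without wild-type replicate 3 or tho2Δ replicate 2), with FIT3, a wall protein that retains iron carriers, at 1.42. Of 13 sulfur and methionine genes 5 fell, but 1 without wild-type replicate 2, 2 without tho2Δ replicate 1 and 3 without tho2Δ replicate 3. Of 5 zinc genes 1 fell, but 0 without wild-type replicate 1 or 2 or tho2Δ replicate 1 or 3. Among 22 further plasma membrane transporters 3 rose (5 without tho2Δ replicate 2), including the urea and polyamine carrier DUR3 (1.30), and 2 fell. Of 33 proteasome genes 2 rose and 1 fell (median -0.01). The number that rose was 1 without wild-type replicate 2 or tho2Δ replicate 1, and 0 fell without wild-type replicate 1 or 2 or tho2Δ replicate 1 or 3. Of 19 transcription elongation genes 2 rose (4 without wild-type replicate 2) and 1 fell, and of 9 genes of G1 and S phase 0 passed. Of 14 secretory pathway genes 3 fell, and of 7 multidrug resistance genes 1, the exporter PDR5 (-0.92), or 2 without wild-type replicate 2. Of 11 Ty element genes 4 fell (2 without wild-type replicate 2 or tho2Δ replicate 3) and 1 rose (0 without tho2Δ replicate 2), with a median of -0.42 that turned positive without a filter on low counts (0.051) and with DESeq2 (0.017).

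The Cbp80-PrA strain pair shares no library with the untagged pair and was read in the same fit. There 256 genes (5.34%) were called higher and 104 (2.17%) lower in tho2Δ. The pair stood apart on whole chromosomes, with a median log2 fold change of 0.95 over 389 genes of chromosome XVI, 328 of which rose, and of -0.28 over 370 genes of chromosome II. Without a tag the medians of all nuclear chromosomes lay between -0.06 and 0.09. Of 185 genes called higher without a tag 56 were also called higher with Cbp80-PrA, which is 30.3% of the first list and 21.9% of the second, and without chromosome XVI the overlap was 48 genes, or 27.7% and 55.8%. Of 58 genes called lower 24 were shared (41.4% and 23.1%), or 23 genes (43.4% and 22.3%) without chromosome XVI. The sign was the same for 171 of 185 and 54 of 58. The effects of the 2 pairs differed for 460 genes (9.6%) by a test of the interaction, with the untagged value above in 205 (4.28%) and below in 255 (5.32%). Without chromosome XVI the number was 248. Among the genes called without a tag these were 50 of 185 and 9 of 58.

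The phosphate genes had list medians of -1.43 without a tag and -1.34 with Cbp80-PrA, and the interaction passed for 2 of 13, PHO84 and VTC3 (-2.04 against -1.34). The ribosomal proteins had medians of -0.73 and -0.82, and the interaction passed for 6 genes with the higher and 8 with the lower value in the untagged pair. PHO84, at -4.01 without a tag, had 251 counts in the Cbp80-PrA wild type and 0 in tho2Δ, at least 97.3-fold lower. The antisense RNA YNCM0001W rose in that pair too (1.61 against 1.30, adjusted p of the difference 0.627). The stress list was at 1.61 without a tag and at 0.42 with Cbp80-PrA. CTT1 stood at 2.27 and 0.09 (difference 2.18, adjusted p = 0.0047), HSP26 at 3.10 and 0.51 (2.59, adjusted p = 1.05e-06), TPS2 at 1.22 and -0.28 (1.49, adjusted p = 8.76e-07) and GSC2 at 1.33 and -0.49 (1.82, adjusted p = 2.17e-09). HSP12 at 5.77 and 3.40 did not differ past the threshold (adjusted p = 0.181), nor did BAG7 (2.85 and 3.15), COS1 (3.75 and 3.21) or HXT4 (2.15 and 2.33). Mitochondrially encoded genes had a median of 0.75 without a tag and -0.33 with Cbp80-PrA, and 21S_RRNA differed by 0.66 (adjusted p = 0.000251).

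Long genes had the lower median in the Cbp80-PrA pair. The median of the 76 genes over 5000 nt was -0.27 without a tag and -0.62 with Cbp80-PrA, and the interaction passed for 23 of them, 20 with the lower value in the Cbp80-PrA pair. IRA2 stood at -0.23 and -1.18 (difference 0.95 ± 0.17, adjusted p = 0.000146) and TEL1 at -0.02 and -0.61 (difference 0.59, adjusted p = 0.00657). REA1 at -1.13 and -1.43 and DYN1 at -1.36 and -1.83 did not differ past the threshold (adjusted p = 0.182 and 0.154). The part of the chromosome-wide shifts in these differences was not tested.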

How the data were processed

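Total RNA from input lysates was sequenced as 3′-end tags. The authors removed duplicates by molecular identifier (UMI-tools 1.0.1), aligned to build R64 (STAR 2.7.10a) and counted tags per gene (HTSeq 2.0.2, intersection-nonempty mode), and the deposited counts, summed over sequencers, were used as they are. The strand setting is not given in the sources used here. A second deposited table, normalised with DESeq2 1.38.2, and 15 pulldown columns were not used. Rows that name no gene were left out of library sizes. They held the tags outside genes (46.6% to 48.3%), those not uniquely placed (4.16% to 4.81%) and ambiguous ones (0.0288% to 0.0507%).

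All 15 total RNA libraries entered 1 fit (edgeR 4.0.16 in R 4.3.3, robust quasi-likelihood, TMM scaling, filterByExpr, 5 group means), tested on simulated data beforehand. The groups were the untagged and the Cbp80-PrA strains of both genotypes and the Hpr1-PrA wild type. That last group was not compared but shares in the filter, the scaling and the estimate of spread. P-values were adjusted by Benjamini-Hochberg over 4792 genes, and the biological coefficient of variation was 0.0867. No 2 replicates agreed within sampling noise (chi-square per degree of freedom 1.33 to 3.26). Replicates were biological replicates of 1 strain per genotype. Exact permutation tests are two-sided, and intervals and floors cover counting error only. Near-identical copies were searched among nuclear coding sequences only and shared at least 90% identity over at least 100 nt (BLAST 2.17.0). Gene positions and upstream windows came from RefSeq R64, to which the gene identifiers were matched.

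The comparison, the 47 gene lists and the motifs were chosen with earlier results of these data known. The naming rule took the 12 largest changes in each direction with a mean of at least 20 CPM, up to 3 called genes per list and direction and 2 more per list by adjusted p alone, which named 143 genes. A further 64 genes were described for their role or after their values were seen. Alternatives were DESeq2 1.42.0, other scaling (total counts, median-ratio size factors), no filter on low counts, a fit of only the groups compared, a replicate block and leaving out each library. Leaving out chromosome XVI was chosen after seeing the data.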

Additional observations from a re-analysis of the deposited data

Results flagged for a closer look

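The effect of the deletion differed between the untagged and the Cbp80-PrA strain pair, by an edgeR interaction test with adjusted p under 0.05, for 46 of the genes described. The values below are the log2 fold change without a tag minus that with Cbp80-PrA. The mitochondrially encoded genes were higher without a tag, with 15S_RRNA at 1.27, ATP6 at 0.992, 21S_RRNA at 0.664, AI1 at 1.16, AI2 at 1.25 and BI2 at 1.29. Stress, heat shock and cell wall genes followed, with HSP26 at 2.59, CTT1 at 2.18, GSC2 at 1.82, GLC3 at 1.52, TPS2 at 1.49, HXK1 at 1.45, SSA4 at 1.44, TSL1 at 1.3, SSE2 at 1.18, HSP42 at 1.12, TPS1 at 0.932, HSP104 at 0.907, SED1 at 0.774 and HSP78 at 0.709. Respiratory genes with a difference were COX26 at 1.93, OM14 at 1.22, CIT1 at 0.854, MDH1 at 0.85 and QCR7 at 0.507. Long genes lay above the Cbp80-PrA value, with IRA2 at 0.947, CSF1 at 0.793, IRA1 at 0.76, VPS13 at 0.76, TEL1 at 0.589, TOM1 at 0.527 and TRA1 at 0.527. Further genes above it were OPI3 at 1.52, CLB1 at 1.03, BAR1 at 0.889, YNL134C at 0.844, MPF1 at 0.74, STO1 at 0.655 and STE6 at 0.567. PHO84 had a fitted difference of 5.48, which rests on 0 counts in the Cbp80-PrA tho2Δ libraries and is no bound. Genes below the Cbp80-PrA value were SNR45 at -2.31, BNA7 at -1.3, SSE1 at -0.964, VTC3 at -0.7, DSE4 at -0.558 and HSC82 at -0.378.

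SNR45, VTC3 and SSE1 lie on chromosome XVI, whose median in the Cbp80-PrA pair was 0.95, and HSP26, TPS1, IRA1, SSE2, OM14 and TEL1 on chromosome II, whose median there was -0.28. The part of these chromosome-wide shifts in the differences was not tested. Groups of 3 libraries were not examined for single libraries far from the others.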

How the results depend on the processing

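The 7 counts of genes were computed under 95 alternatives in all, and 90 of these stayed within 1.5 times the reported count. The exceptions were 92 genes called lower without tho2Δ replicate 2, 363 higher by adjusted p alone with DESeq2, 276 genes differing between the strain pairs with DESeq2 and 248 without chromosome XVI, and 86 called higher with Cbp80-PrA without chromosome XVI. Leaving out 1 library at a time gave 180 to 198 called higher, 44 to 92 called lower, 441 to 552 higher and 372 to 449 lower by adjusted p, 238 to 289 and 101 to 115 called with Cbp80-PrA, and 336 to 510 differing between pairs. DESeq2 shared 160 of 185 and 47 of 58 calls. Scaling by total counts gave 212 called higher and 44 lower and moved the median of all genes to 0.083.

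A replicate block gave 187 genes called higher and 63 lower, 620 and 562 by adjusted p alone, 261 and 105 with Cbp80-PrA and 566 for the difference. Same-numbered libraries correlated at 0.010, 0.168 and 0.226 in their deviations from the group means. Wild-type replicate 2 with tho2Δ replicate 3 gave -0.157, and wild-type replicate 3 with tho2Δ replicate 2 gave -0.230. Wild-type replicate 1 correlated better with tho2Δ replicate 2 (0.063). Whether the numbers pair the samples was thus not settled, and the main fit took no block. LSR1 did not pass with the block (0.55).

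Of 2259 values of named genes 2088 kept their direction and their side of the adjusted p of 0.05. Of the others 152 no longer passed it, 6 came to pass it and 13 changed sign. The fold limit was not part of this comparison, so a gene that dropped below that limit was not counted as changed. Those that changed sign did not pass the test. TEL1 was at 0.057, HPR1 at 0.066 and STO1 at 0.061 with total counts. Leaving out 1 library gave -0.073 to 0.072 for TEL1, -0.63 to 0.10 for GPD1, -0.11 to 0.087 for HPR1, -0.10 to 0.076 for STO1, -0.050 to 0.76 for YNL146C-A and -0.50 to 0.025 for TEX1. Some list medians changed sign too. With total counts mRNA export was at 0.045 and transcription elongation at 0.014, with only the groups compared plasma membrane transporters were at -0.0030, and Ty elements were at 0.051 without a filter and 0.017 with DESeq2. Leaving out 1 library gave -0.061 to 0.025 for mRNA export and -0.24 to 0.013 for multidrug resistance. The cause of these changes was not tested. The fit of only the groups compared gave no value for 9 named genes. In the shallowest library 3 counts are 6.81 CPM, so a level under that value could not be told from 0 in a single library, which limits the precision of folds against it.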
